A study of Mus musculus with 4 samples.

Results

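Fzd4, Fzd8, Fzd9 and Fzd10 are 4 of the 10 Frizzled receptor genes among the 140 genes of a MERFISH panel, an imaging assay in which barcoded RNA molecules are decoded in place and assigned to segmented cells. The members were taken by gene name from each of the 4 deposited count tables, and all 4 were present in every table. Each of the 4 coverslips held a wild-type section and a Cx3cl1(-/-) section, both cut coronally at 10 µm through the barrel cortex from mice of postnatal day 5, whose right whiskers had been lesioned 24 h earlier, at day 4. Coverslips 3 and 4 were from female mice and coverslips 1 and 2 from male mice. Cx3cl1(-/-) mice lack fractalkine, a chemokine whose receptor in the brain is found on microglia. No column of the tables says which cells belong to which genotype, hemisphere or brain region, so that values are per coverslip, with wild-type and Cx3cl1(-/-) cells together, and there is no comparison of genotypes.

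Frizzled genes encode receptors with 7 membrane passes whose extracellular cysteine-rich domain binds secreted Wnt ligands. Together with the co-receptors Lrp5 and Lrp6 they stabilise beta-catenin, which acts with TCF/LEF transcription factors, and they also signal without beta-catenin. Fzd4 is the receptor through which the ligand Norrin acts on the endothelium of the brain and retina, where the Wnt pathway builds and maintains the blood-brain barrier. Fzd8 and Fzd5 form one branch of the family and are expressed in the early forebrain. Fzd9 and Fzd10 form another, and Fzd9 has been studied in the hippocampus.

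The tables held 863580 cells, of which 794833 with at least 20 gene counts were kept. Gene counts on a coverslip totalled 44924894 and 76555311 on the female and 33519204 and 37922304 on the male coverslips, so that depth differed with sex, and blank barcodes made up 1.16% to 1.48% of all counts. Cells of coverslips 1, 2 and 3 share running numbers as names, and 0 of the cells with the same number had the same gene counts. Of the kept cells, 44.3% met exactly 1 of 15 marker gates, and these cells form the classes used here. The names astrocyte-like, microglia-like and OPC-like (resembling oligodendrocyte precursors) are used for classes gated on at least 3 marker genes. Inhibitory neuron-like cells were gated on Gad1 and Gad2 with few Bcl11b counts, without use of Sst, Pvalb or Vip. The other classes are called by their genes. The Cldn5/Pecam1 class, gated on a tight-junction gene and an adhesion gene of endothelium, held 27835 cells. The Slc17a6 class, gated on a vesicular glutamate transporter gene typical of subcortical excitatory neurons, held 24040. The Ezr-high class held 5588, and the Wnt5a/Wnt4 class held 896, with 140 to 259 on a coverslip.

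Blank barcodes match no probe and measure false decoding, and a member was taken as measured in a class where its count per cell exceeded that of all 40 blanks on each of the 4 coverslips. Fzd4 met this in 6 of the 15 classes, Fzd8 in 6, Fzd9 in 8 and Fzd10 in 8. Over the 140 genes and 15 classes, 51.4% of the gene and class pairs met it, so that these counts lie near those of the panel. In the 6 neuron classes 1 barcode, Blank-34, was the highest blank in 24 of 24 sums of a class and coverslip, whereas 10 different blanks were highest in the other classes. Fzd4 stayed below this highest blank in inhibitory neuron-like cells on every coverslip (0.203 ± 0.0214 counts per cell, SD, n = 4), and 5 blanks lay at or above it on at least 1 of them. In all kept cells together Fzd9 lay above every blank on 4 of 4 coverslips, Fzd4 on 1, Fzd8 on 2 and Fzd10 on 2. Counts of different genes depend on their probes as well as on RNA, so that no level of 1 gene is set against that of another.

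**Figure D1:**
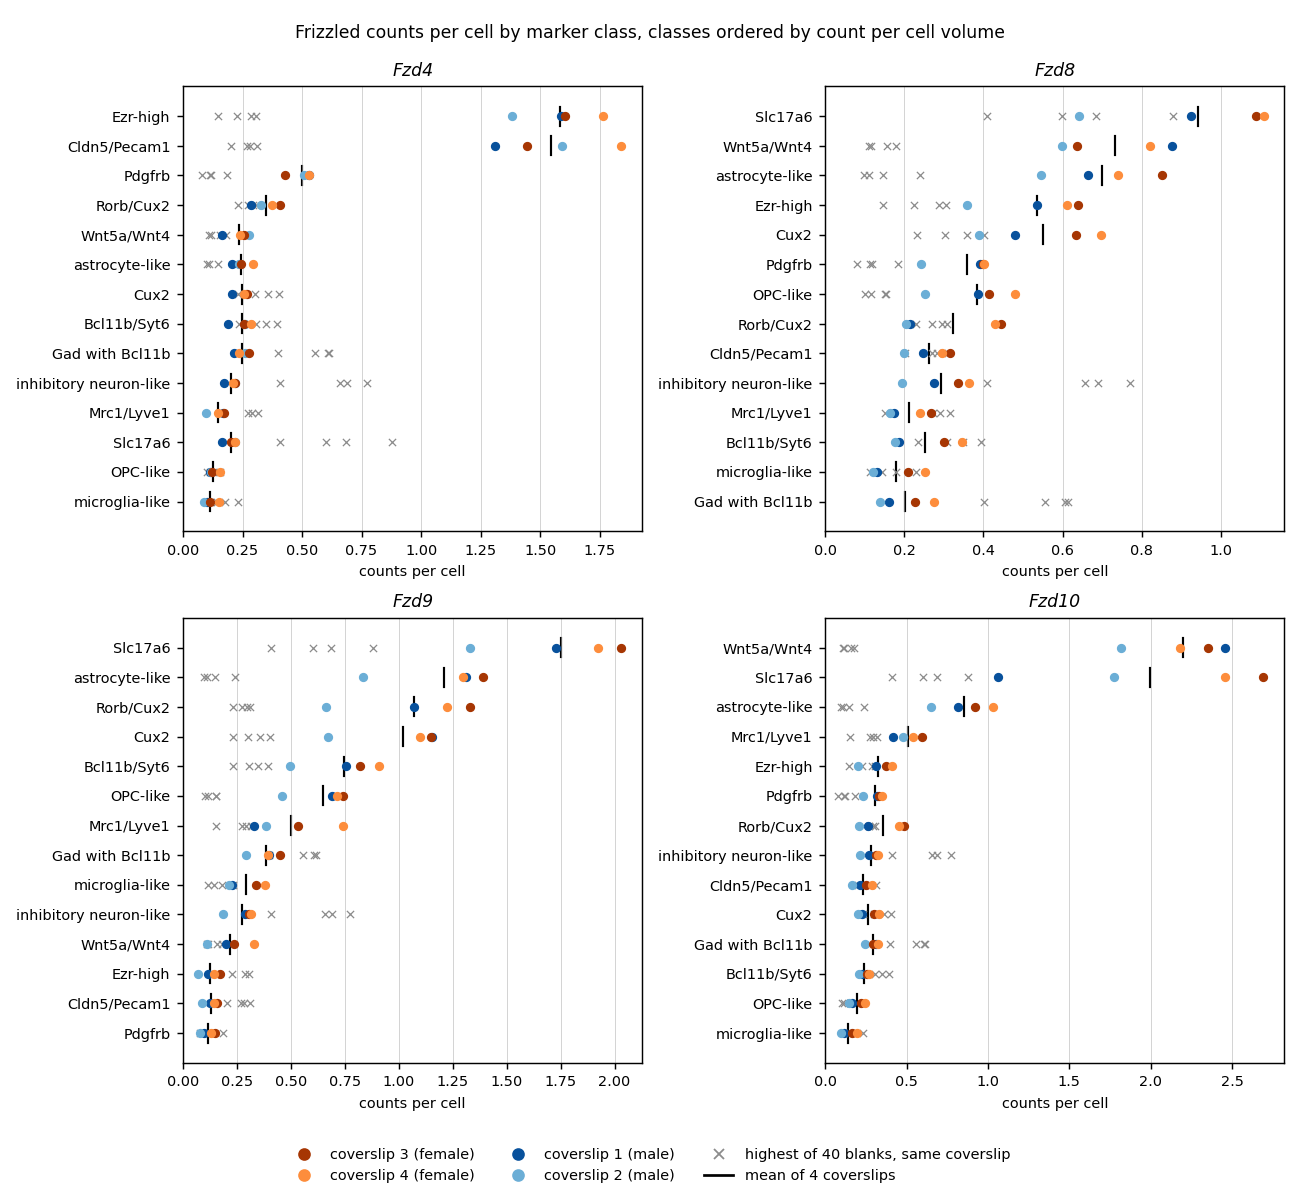
Counts per cell of Fzd4, Fzd8, Fzd9 and Fzd10 (x axis) by marker class (y axis), with 1 point per coverslip, the mean of 4 coverslips as a bar and the highest of 40 blank barcodes on each coverslip as a cross. Fzd4 stands apart in the Ezr-high and Cldn5/Pecam1 classes, Fzd10 in the Wnt5a/Wnt4 and Slc17a6 classes, while Fzd8 and Fzd9 fall off in smaller steps.

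Each class was set against the mean log level of the other 14 to ask where each receptor gene is expressed. Counts were summed per class and coverslip, scaled by summed cell volume and tested with edgeR against a 2-fold difference. A call needed an adjusted p under 0.05 over 107 genes and a level above every blank in the class, or, for a lower call, in at least 1 other class. Over the 4 members and 15 classes, 9 of 60 comparisons were called higher and 9 lower. Over all genes and classes, 15.1% were called higher and 15.8% lower. The SE and p draw on the spread of all 60 class sums, and the contrasts share the sums of the other classes. The class with the highest level was picked from the same counts that tested it.

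Fzd4 was called higher in just a pair of classes, the Ezr-high cells and the Cldn5/Pecam1 cells. Ezr encodes ezrin, which ties membranes to actin and is abundant in the epithelium of the choroid plexus and ventricles. In Ezr-high cells Fzd4 had 1.60 and 1.77 counts per cell on the female coverslips and 1.59 and 1.38 on the male ones, and the highest blank there lay between 0.146 and 0.305. In Cldn5/Pecam1 cells it had 1.45 and 1.84 counts per cell on the female and 1.31 and 1.59 on the male coverslips. Every one of these 8 values was above every value in the remaining 13 classes. Against the mean of the other classes the log2 difference was 2.93 ± 0.06 (SE, adjusted p = 2.8e-33) in Ezr-high cells, where 29.9% of all genes were called higher. It was 2.83 ± 0.06 (adjusted p = 1.9e-32) in Cldn5/Pecam1 cells, where 11.2% were.

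The order of these 2 classes was not resolved. Per cell volume Ezr-high cells lay above Cldn5/Pecam1 cells on 2 of 4 coverslips, with a log2 difference of 0.10 ± 0.10 (SE) that was not called, where 29% of genes were called higher. With TMM factors the difference was -0.69 and with library totals -0.29, also not called. The Pdgfrb class, gated on a receptor gene of pericytes and other mural cells, followed at 0.429 and 0.529 counts per cell on the female and 0.528 and 0.506 on the male coverslips. Against the mean of the other classes, Fzd4 there had a log2 difference of 1.09 ± 0.07 (SE, adjusted p = 0.133), which was not called. Per cell volume it lay above the next class, Rorb/Cux2, on 4 of 4 coverslips (log2 0.75 ± 0.22, SD). Fzd4 was higher in Cldn5/Pecam1 cells than in Pdgfrb cells by a log2 difference of 1.62 ± 0.11 (adjusted p = 2.0e-07), on 4 of 4 coverslips, in a comparison where 3.74% of genes were called higher. The Pdgfrb cells also held Cldn5 at 3.21 counts per cell, against 34.7 in the Cldn5/Pecam1 class, and its part in their Fzd4 was not tested. In Ezr-high cells Cldn5 lay at 0.135 ± 0.0494 counts per cell, below its level in astrocyte-like cells.

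Below these classes Fzd4 was low. It averaged 0.348 ± 0.0519 counts per cell in Rorb/Cux2 cells, which carry genes of cortical layer 4, 0.234 ± 0.0503 in Wnt5a/Wnt4 cells and 0.244 ± 0.0378 in astrocyte-like cells (SD, n = 4), each above every blank. From the Wnt5a/Wnt4 class down to the Slc17a6 class, neighbours in the order did not differ beyond their spread over coverslips. Fzd4 was called lower in microglia-like cells (log2 -1.27 ± 0.09, where 57% of genes were lower) and in OPC-like cells (log2 -1.17 ± 0.09, where 27.1% were). Its level lay below the highest blank on 4 of 4 coverslips in microglia-like cells and on 1 of 4 in OPC-like cells. With TMM factors neither of these lower calls held, at log2 -0.25 and -0.70, and that in OPC-like cells was also lost without female replicate 1 (log2 -1.13).

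Fzd4 divided the Ezr-high cells themselves. Among them, 4057 cells with at most 1 count of Slc1a3, a glutamate transporter gene of astrocytes and radial glia, had 2.04 and 2.43 Fzd4 counts per cell on the female and 1.89 and 1.64 on the male coverslips. The 747 cells with at least 4 counts of Slc1a3 had 0.153 and 0.221 on the female and 0.174 and 0.226 on the male coverslips. The 2 sets of values did not overlap, although the second set had the higher total count, at 222 against 205 gene counts per cell. How many other genes of the panel also did not overlap was not counted, so that this does not single out Fzd4. Per cell, the other 3 members went the other way. Fzd8 lay at 0.480 ± 0.106 in cells with little Slc1a3 and 0.763 ± 0.180 in cells with more. Fzd9 lay at 0.0902 ± 0.0380 and 0.288 ± 0.0468, and Fzd10 at 0.243 ± 0.0772 and 0.565 ± 0.101. The Fzd8 ranges over coverslips overlapped, at 0.324 to 0.556 and 0.516 to 0.936. Per cell volume the Fzd8 levels lay closer together. With little Slc1a3 they were 0.807 and 0.758 on the female and 0.699 and 0.429 on the male coverslips. With more Slc1a3 they were 0.911 and 0.932 on the female and 0.773 and 0.492 on the male coverslips. In the cells with little Slc1a3, Fzd9 and Fzd10 lay below the highest blank on 4 of 4 coverslips, and in the cells with more, Fzd4 did on 1 of 4. This split and the other splits below were chosen after the data were seen and carry no test.

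Of the 3749 kept cells with at least 5 counts of Fzd4, 51.5% were Cldn5/Pecam1 cells and 14.3% Ezr-high cells, which make up 3.50% and 0.703% of all kept cells. A further 23.4% met several gates and 6.38% met none. Outside the Cldn5/Pecam1, Pdgfrb and Ezr-high gates, Fzd4 was compared by distance from the nearest Cldn5/Pecam1 cell. Other cells within 15 units held 0.220 ± 0.0187 counts per cell and those at 60 units or more 0.185 ± 0.0171 (SD, n = 4), or 14.4% and 12.01% of the Cldn5/Pecam1 level. Cldn5 lay at 3.27% of its Cldn5/Pecam1 level within 15 units and 0.439% at 60 or more. Cldn5 gates that class, and cells that met the gate were left out of the other cells. Its percent is thus limited by the gate, while Fzd4 gates no class, so that the percents of these genes are not comparable. The Fzd4 levels by distance were not compared with the blanks. Over all kept cells Fzd4 lay above every blank on 1 of 4 coverslips, and in astrocyte-like cells on 4 of 4.

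**Figure D2:**
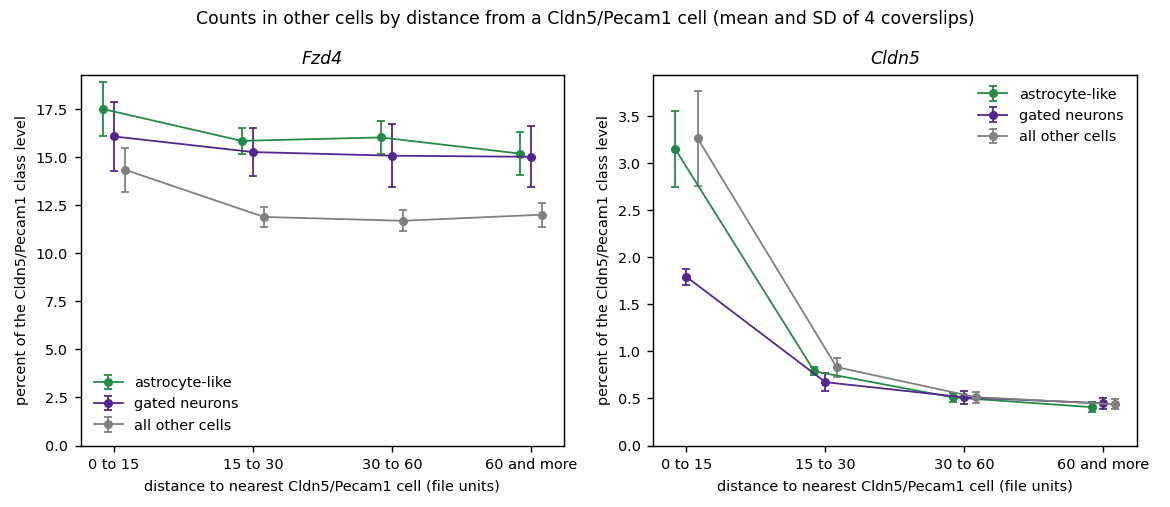
Fzd4 and Cldn5 in astrocyte-like cells, gated neurons and all other cells, as a percent of the Cldn5/Pecam1 class level (y axis), by distance to the nearest Cldn5/Pecam1 cell in file units (x axis); points and bars are the mean and SD of 4 coverslips. Cldn5 in all other cells lies at 3.27% within 15 units and 0.439% at 60 or more, and Fzd4 at 14.4% and 12.01%, levels not compared with blanks. Cldn5 gates the Cldn5/Pecam1 class and Fzd4 gates none, so that the panels are not comparable with each other.

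Fzd10 was highest in the small Wnt5a/Wnt4 class, which is defined by a pair of Wnt ligand genes and also held Pdgfra at 6.37 and Slc1a3 at 5.82 counts per cell. It had 2.35 and 2.18 counts per cell there on the female and 2.46 and 1.82 on the male coverslips, at least 13.2 times the highest blank. The log2 difference from the mean of the other classes was 2.81 ± 0.08 (SE, adjusted p = 3.1e-26), in a contrast where 29% of genes were called higher. Slc17a6 cells came next with 2.69 and 2.45 counts per cell on the female and 1.06 and 1.77 on the male coverslips (log2 2.25 ± 0.08, adjusted p = 3.9e-20), where 20.6% of genes were called higher. With TMM factors the Slc17a6 difference was 1.43 and with library totals 1.32, both called. Per cell volume, the Wnt5a/Wnt4 class lay above the Slc17a6 class on 4 of 4 coverslips, by a mean log2 difference equal to its spread (0.57 ± 0.57, SD). Within the Wnt5a/Wnt4 class, 640 cells with at least 4 Pdgfra counts had 2.38 ± 0.289 Fzd10 counts and 105 cells with at most 1 had 1.44 ± 0.364.

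Astrocyte-like cells held Fzd10 at 0.854 ± 0.161 counts per cell (SD, n = 4), above every blank on 4 of 4 coverslips. Their log2 difference of 1.10 ± 0.08 was not called (adjusted p = 0.158), though with TMM factors (log2 1.22, adjusted p = 0.017) and library totals (log2 1.18, adjusted p = 0.028) it was. Fzd10 averaged 0.507 ± 0.0789 in Mrc1/Lyve1 cells, which carry macrophage genes of brain borders. It was lowest in microglia-like cells at 0.141 ± 0.0446. There it was called lower (log2 -1.56 ± 0.11, adjusted p = 6.4e-07, where 57% of genes were lower) but lay below the highest blank on 4 of 4 coverslips. That call did not hold with TMM factors (log2 -0.53) or library totals (log2 -0.88).

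Fzd10 was gathered in one part of the sections. The 10% of 200-unit squares richest in Fzd10 per cell held 44.2% ± 6.04 of its counts (SD, n = 4), the 14th largest share of 140 genes. For Fzd4 this share was 20.9% ± 1.37, for Fzd8 22.3% ± 1.47 and for Fzd9 24.2% ± 0.953. The median over all genes was 23.5%. Over blanks it was 20.2%, with a range of 16.4% to 25.7% that holds the shares of these 3 genes. By this share their spread was thus not told apart from that of blanks. With squares of 100 and 400 units the Fzd4 share was 27.0% and 15.8%. The Fzd8 share was 24.9% and 19.5%, and the Fzd9 share 24.5% and 23.9%.

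**Figure D3:**
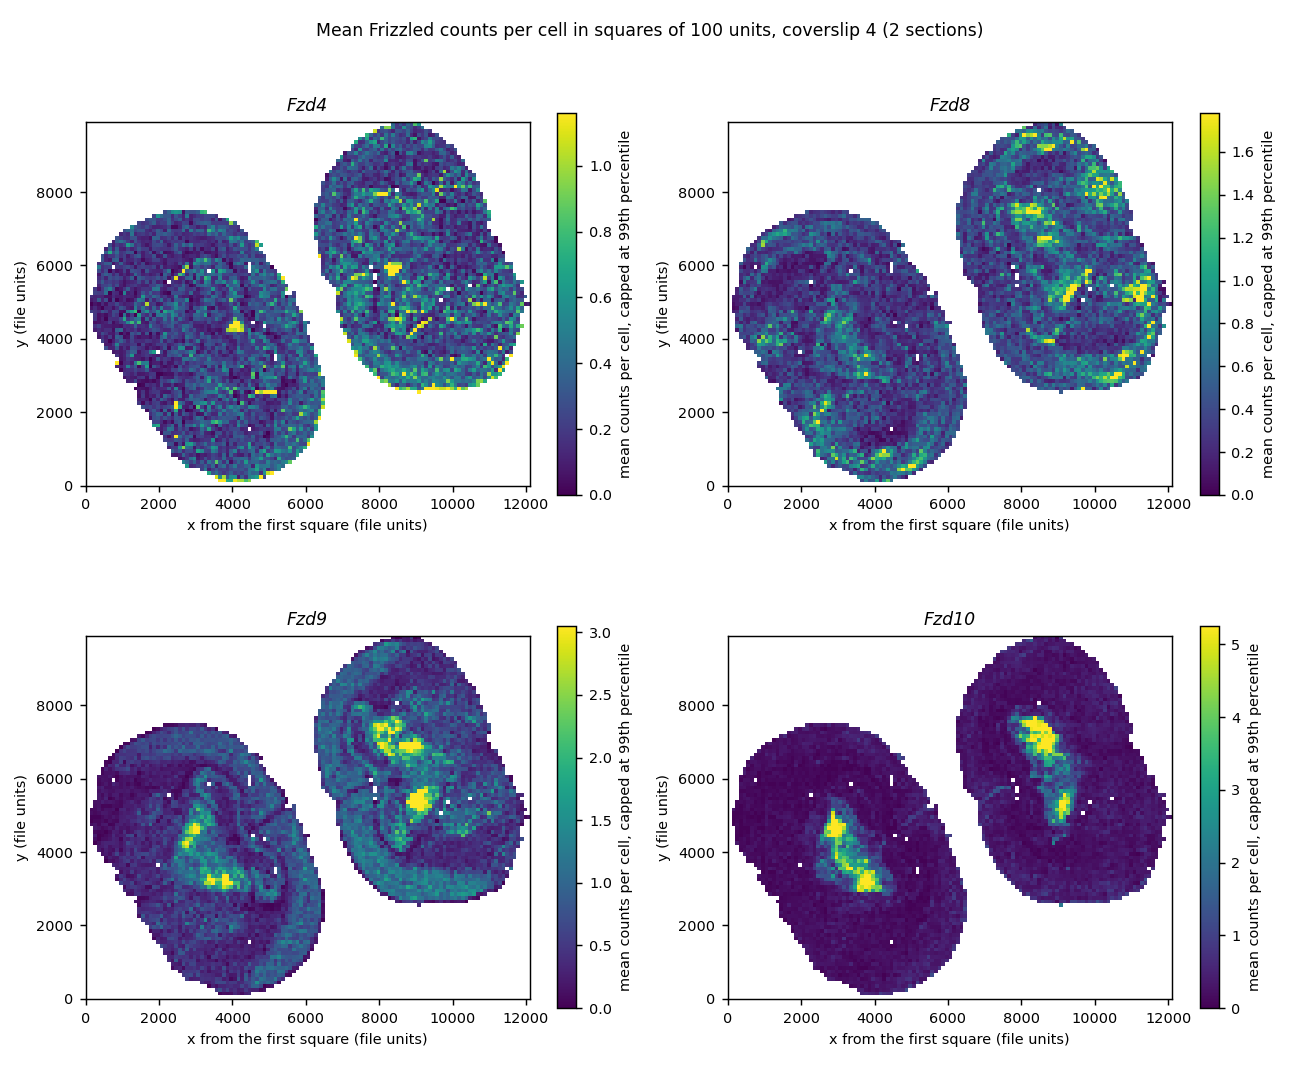
Mean counts per cell of the 4 members in squares of 100 file units on coverslip 4, which holds 2 sections; axes are positions in file units and each colour scale is capped at its 99th percentile. Fzd10 is high in a central patch of each section, Fzd9 is highest within that patch with a band along part of the margin, Fzd8 is patchy, and Fzd4 is high in scattered single squares and a few small streaks.

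Squares rich and poor in Slc17a6 cells were then compared, a comparison added after the maps were seen. Squares of 200 units were called Slc17a6-rich where Slc17a6 cells were over 50% of at least 5 gated neurons and Slc17a6-poor where they were at most 10%. The rich squares held 8.02% to 10.8% of kept cells. Astrocyte-like cells in rich squares had 4.45 and 4.60 Fzd10 counts per cell on the female and 3.61 and 3.02 on the male coverslips, against 0.556 and 0.580 on the female and 0.623 and 0.487 on the male coverslips in poor squares. The groups did not overlap, and the log2 difference was 2.67 ± 0.15 (SE, adjusted p = 4.4e-14), where 3.74% of genes were called higher. OPC-like cells rose as well, at 0.651 ± 0.176 against 0.118 ± 0.0244 counts per cell (SD, n = 4; log2 2.45 ± 0.16, adjusted p = 9.1e-12, where 3.74% were called higher). In poor squares this level lay below the highest blank on 3 of 4 coverslips. So did microglia-like cells, at 0.385 ± 0.128 against 0.105 ± 0.0307 (log2 1.87 ± 0.19, adjusted p = 1.0e-04, where 3.74% were), whose level in poor squares lay below the highest blank on 4 of 4. In both classes Fzd10 met the blank criterion through the rich squares, and the size of the difference rests on a level not told apart from blanks. The log2 differences of astrocyte-like and OPC-like cells differed by 0.22 ± 0.21, which was not called. Cldn5/Pecam1 cells were not called (log2 1.39 ± 0.16, adjusted p = 0.0675, and called with squares of 100 units). Their level in poor squares lay below the highest blank on 4 of 4 coverslips. Inhibitory neuron-like cells (log2 0.41 ± 0.18) were not called either. Their level lay below the highest blank on 4 of 4 coverslips in poor squares and on 3 of 4 in rich squares, so that a rise could not be judged.

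The Slc17a6 transcript also rose in these neighbours. Astrocyte-like cells held 1.35 ± 0.0652 counts of it in rich squares and 0.192 ± 0.0349 in poor squares, and Tcf7l2, a TCF/LEF factor gene, lay at 9.28 ± 3.10 and 1.24 ± 0.366. In rich squares astrocyte-like cells held 9.73% ± 0.579 of the Slc17a6 level of Slc17a6 cells and 23.8% ± 1.11 of their Tcf7l2 level. Fzd10 in these astrocyte-like cells lay at 173% ± 65.1 of its level in Slc17a6 cells, with a range of 133% to 269.9% over coverslips. OPC-like cells in the same squares held 11.03% ± 0.697 of the Slc17a6 level and 27.7% ± 7.43 of the Fzd10 level. In astrocyte-like cells with no Slc17a6 count the log2 difference of Fzd10 between rich and poor squares was 2.39 (adjusted p = 2.6e-17). The part of RNA from neighbouring cells in these Fzd10 counts was not tested. In the astrocyte-like class as a whole, 25060 cells with at most 2 counts of Gfap, the gene of an intermediate filament, had 1.38 ± 0.320 Fzd10 counts per cell and 21056 cells with at least 8 had 0.455 ± 0.0754.

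**Figure D4:**
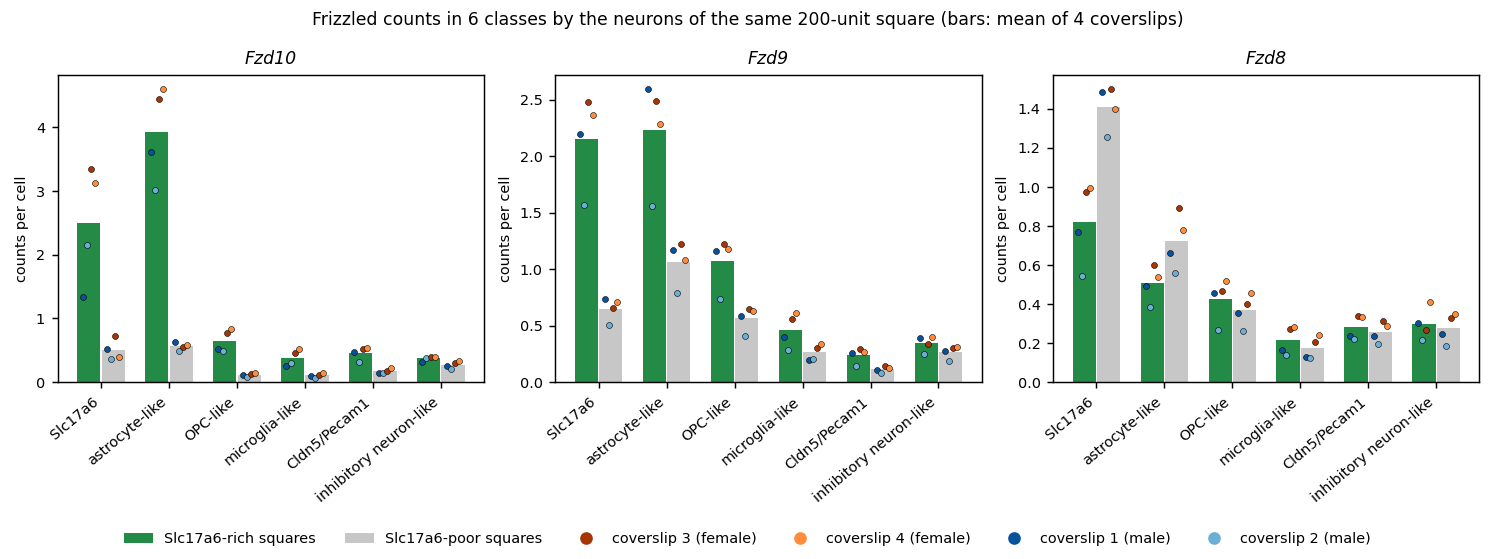
Counts per cell of Fzd10, Fzd9 and Fzd8 (y axes) in 6 classes (x axis) in Slc17a6-rich squares (green) and Slc17a6-poor squares (grey); bars are means of 4 coverslips and points are coverslips. Fzd10 in astrocyte-like cells averages 3.92 in rich and 0.562 in poor squares, and Fzd8 in Slc17a6 cells averages 0.821 in rich and 1.41 in poor squares.

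Fzd9 marked Slc17a6 cells and 3 further classes. Slc17a6 cells had 2.03 and 1.92 counts per cell on the female and 1.73 and 1.33 on the male coverslips. The log2 difference from the other classes was 2.08 ± 0.07 (SE, adjusted p = 3.9e-19), where 20.6% of genes were called higher. Scaled to library totals, the call was lost (log2 1.14, adjusted p = 0.0513). Astrocyte-like cells followed with 1.39 and 1.30 on the female and 1.31 and 0.833 on the male coverslips (log2 1.64 ± 0.07, adjusted p = 7.9e-11, where 18.7% of genes were called higher). The cortical-type classes Rorb/Cux2, at 1.07 ± 0.293 counts per cell, and Cux2, at 1.02 ± 0.232, were called too (log2 1.39 ± 0.08, where 18.7% were higher, and 1.33 ± 0.08, where 19.6% were). For the Cux2 class the call was lost with TMM factors (log2 0.93) and with library totals (log2 1.13, adjusted p = 0.0837). Rorb/Cux2 and Cux2 cells did not differ beyond their spread, but the steps from Slc17a6 to astrocyte-like and from astrocyte-like to Rorb/Cux2 cells did, on 4 of 4 coverslips each.

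Fzd9 was lowest in the 3 classes with the highest Fzd4 levels per cell volume, the Cldn5/Pecam1, Ezr-high and Pdgfrb cells. It was called lower in Cldn5/Pecam1 cells (0.128 ± 0.0295 counts per cell, log2 -1.63 ± 0.10, where 22.4% of genes were lower) and in Ezr-high cells (0.124 ± 0.0424, log2 -1.64 ± 0.11, where 6.54% were). It was also called lower in Pdgfrb cells (0.114 ± 0.0307, log2 -1.81 ± 0.11, where 13.1% were). At least 1 blank lay at or above Fzd9 in each of these 3 classes on at least 3 of 4 coverslips, so that its level there is bounded by the blanks. The call in Cldn5/Pecam1 cells was lost with TMM factors (log2 -1.11).

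In Slc17a6 cells Fzd9 was higher in rich squares, at 2.15 ± 0.409 counts per cell, than in poor squares, at 0.651 ± 0.105 (log2 1.76 ± 0.10, adjusted p = 4.9e-09), where 5.61% of genes were called higher, and Fzd10 was as well (2.49 ± 0.928 against 0.503 ± 0.166, log2 2.32 ± 0.17, adjusted p = 7.7e-10). In poor squares Fzd10 lay below the highest blank on coverslips 1 and 2 and Fzd9 on coverslip 2, so that both sizes rest in part on levels not told apart from blanks. In astrocyte-like cells Fzd9 lay at 2.23 ± 0.468 in rich and 1.06 ± 0.192 in poor squares, a log2 difference of 0.96 ± 0.09 that the 2-fold test did not call but the test against no change did (adjusted p = 6.8e-12). With squares of 100 and 400 units, 62 and 64 of 107 genes had an unadjusted p under 0.05 against no change in these cells. A split of the Slc17a6 class by Tcf7l2 gave the same direction. The 17892 cells with at least 8 counts of Tcf7l2 had 3.37 and 3.18 Fzd10 counts per cell on the female and 1.42 and 2.23 on the male coverslips. The 5584 cells with at most 2 had 0.334 and 0.315 on the female and 0.289 and 0.228 on the male coverslips, below the highest blank there. Fzd9 averaged 2.16 ± 0.379 in the cells with more Tcf7l2 and 0.555 ± 0.0942 in the cells with less. In the latter it lay below the highest blank on coverslips 1 and 2. Fzd8, at 0.922 ± 0.251 and 1.00 ± 0.136, did not separate them, and lay below the highest blank on coverslip 2 in both groups. Fzd4, at 0.197 ± 0.0264 and 0.212 ± 0.0327, lay below the highest blank in both groups on every coverslip, so that it was not told apart from blanks.

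**Figure D5:**
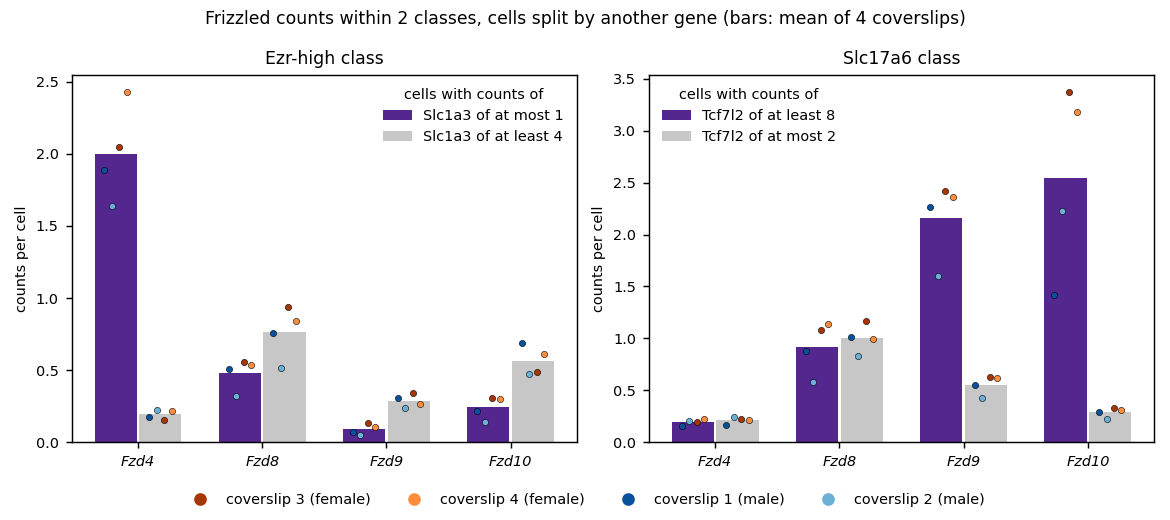
Counts per cell (y axes) of the 4 members in Ezr-high cells split by their Slc1a3 count and in Slc17a6 cells split by their Tcf7l2 count; bars are means of 4 coverslips and points are coverslips. Fzd4 averages 2.00 in Ezr-high cells with at most 1 Slc1a3 count and 0.193 in those with at least 4, and Fzd10 averages 2.55 in Slc17a6 cells with at least 8 Tcf7l2 counts and 0.291 in those with at most 2.

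Fzd8 was the most even of the 4 across classes. Its highest level per cell volume was in Slc17a6 cells, with 1.09 and 1.11 counts per cell on the female and 0.925 and 0.642 on the male coverslips. On coverslip 2 this lay below the highest blank (0.880), so that the log2 difference of 1.19 ± 0.07 (SE, adjusted p = 0.0053) was not called. Without that coverslip, male replicate 2, it was called (log2 1.23, adjusted p = 0.011). With TMM factors it was 0.37 and with library totals 0.26. Wnt5a/Wnt4 cells, with 0.636 and 0.821 on the female and 0.878 and 0.598 on the male coverslips, had the same level per volume within the spread and lay at least 3.56 times above the highest blank. There the log2 difference was 1.22 ± 0.09 (adjusted p = 0.0080) and called, where 29% of genes were called higher. It was lost with TMM factors (log2 0.93), DESeq2 (log2 1.22, adjusted p = 0.0725), lower marker minimums (log2 1.10), without male replicate 1 (log2 1.11) and without male replicate 2 (log2 1.17).

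Fzd8 then ran down through astrocyte-like cells at 0.701 ± 0.129 counts per cell, Ezr-high cells at 0.536 ± 0.127 and OPC-like cells at 0.383 ± 0.0948 (SD, n = 4), all above every blank on 4 of 4 coverslips. Per cell volume it was lowest in neurons with Gad1, Gad2 and Bcl11b, a combination of the striatum, which held 0.201 ± 0.0629 counts per cell. The log2 difference there was -1.29 ± 0.09 (adjusted p = 4.4e-04, where 7.48% of genes were lower), and up to 12 blanks lay at or above Fzd8. Per cell, Fzd8 was lower in microglia-like cells, at 0.178 ± 0.0625. It met the blank criterion in neither class, so that which was lowest was not resolved. Unlike Fzd10 and Fzd9, Fzd8 was lower in Slc17a6 cells of rich than of poor squares in value, at 0.821 ± 0.210 against 1.41 ± 0.113 counts per cell. The groups did not overlap, and the share of all genes without overlap was not counted. The level in rich squares lay below the highest blank on coverslip 2. The log2 difference of -0.79 ± 0.11 was not called by the 2-fold test, but was by the test against no change (adjusted p = 5.3e-08). Many genes passed the latter test. With squares of 100 and 400 units, 53 and 54 of 107 genes had an unadjusted p under 0.05 against no change in Slc17a6 cells.

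By class means (n = 15 classes, which share coverslips, depth and gates), the genes whose log level per volume was most like Fzd4 were Id1, a target gene of BMP signalling (Pearson r = 0.87), Pecam1, which gates a class (r = 0.81), and Fzd6 (r = 0.81). Fzd8 was most like Fzd10 (r = 0.75), Tcf7l2 (r = 0.69) and the Wnt antagonist gene Sfrp1 (r = 0.61). Fzd9 was most like the glypican gene Gpc5 (r = 0.78), Wnt7b (r = 0.74) and Slc17a6, a gating gene (r = 0.65). Fzd10 was most like Fzd8, the collagen gene Col4a6 (r = 0.73) and Wnt4, a gating gene (r = 0.71). Between members the remaining values ran from r = -0.47 for Fzd4 with Fzd9 to r = 0.19 for Fzd9 with Fzd10.

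Other Wnt genes of the panel were described in the classes where the members were high, over a list of 47 receptor, ligand, antagonist and pathway genes that holds none of the 4 members, with levels scaled by volume. In Cldn5/Pecam1 cells 6 of the 47 were called higher and 11 lower, near the shares of all genes, 11.2% higher and 22.4% lower. The median log2 difference was -0.81 beside -0.63 over all genes. The smallest adjusted p there were those of Adgra2 (log2 3.05 ± 0.05), the receptor that with Reck passes Wnt7 to Frizzled, the factor genes Tcf7 (log2 3.44 ± 0.06) and Lef1 (log2 3.03 ± 0.11), Fzd6 (log2 3.95 ± 0.10), Lrp5 (log2 1.55 ± 0.05) and Wnt16, which was lower (log2 -1.82 ± 0.10). In Ezr-high cells 16 were higher and 1 lower (median 0.39 beside 0.44), where 29.9% of all genes were called higher and 6.54% lower. Sfrp1 (log2 3.46 ± 0.08), the Wnt5a receptor gene Ror1 (log2 3.02 ± 0.07) and Sfrp5 (log2 2.95 ± 0.08) led the list there. Fzd5 (log2 2.78 ± 0.07), Fzd7 (log2 3.00 ± 0.08) and Lrp5 (log2 2.04 ± 0.05) followed. The Wnt co-receptor gene Lrp5 was thus called higher in both classes where Fzd4 was.

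In Slc17a6 cells 8 of the 47 were called higher and 1 lower (median 0.71 beside 0.70, with 20.6% of all genes higher and 3.74% lower). Tcf7l2 (log2 4.63 ± 0.14), Wnt3 (log2 3.03 ± 0.08), Lef1 (log2 2.58 ± 0.11) and Wnt16 (log2 2.08 ± 0.07) were higher and Lrp5 was lower (log2 -1.99 ± 0.07), while Wnt3a (log2 1.95 ± 0.08) was not above every blank. In Wnt5a/Wnt4 cells 16 were higher and 2 lower (median 0.22 beside 0.09, with 29% of all genes higher and 5.61% lower). The leading ones were Adgra2 (log2 3.36 ± 0.05), Ror2 (log2 3.25 ± 0.07), Fzd2 (log2 3.62 ± 0.09), Wnt6 (log2 3.85 ± 0.12), Ptk7 (log2 2.20 ± 0.05) and Ror1 (log2 2.79 ± 0.10).

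Between sections of a coverslip, which were told apart by position and are not named by genotype, the higher section exceeded the lower by 1.08 to 1.54 times for Fzd4 over all cells, 1.06 to 1.35 times for Fzd8, 1.11 to 1.42 times for Fzd9 and 1.21 to 1.56 times for Fzd10. In Cldn5/Pecam1 cells the 8 sections ranged from 1.03 to 2.15 Fzd4 counts per cell, and in Slc17a6 cells from 1.05 to 2.98 Fzd10 counts per cell. Female and male coverslips, at 2 each, were compared over all cells. None of the 140 genes was called (0% of genes) by edgeR, with 16 at an unadjusted p under 0.05. The log2 differences of the members were 0.17 ± 0.31 for Fzd4, 0.57 ± 0.32 for Fzd8, 0.44 ± 0.37 for Fzd9 and 0.57 ± 0.33 for Fzd10 (SE). With TMM factors the Fzd4 difference was -0.24. The median over all genes was 0.41, so that sex and depth cannot be told apart, and an exact permutation test of 2 against 2 cannot go below p = 0.333.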

How the data were processed

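The deposited tables give, per the file headers, whole-number counts in each segmented cell, with columns for 140 genes and 40 blank barcodes. Per the file headers they also give other measures, the volume and centre of each cell, with no unit, so distances are in file units. The authors' decoding and segmentation software is not given in the sources used here. The members and gene lists were chosen with earlier results of these data known. Marker minimums were set on marker counts alone. Cells with at least 20 gene counts that met exactly 1 gate were summed per class and coverslip, and coverslips, not cells, are replicates. The sums of 15 classes entered 1 edgeR 4.0.16 quasi-likelihood fit (R 4.3.3) with coverslip as a block and summed volume as offset. Contrasts were tested with glmTreat against a 2-fold difference, adjusted by Benjamini-Hochberg over 107 genes. The genes that gate a class were left out, as were Sst, Pvalb and Vip. The fit was tested on simulated data. Alternatives were TMM factors, library totals, DESeq2 1.42.0, a test against no change, other gates and filters, and leaving out coverslips. The genes named are the members, the 3 genes most like each and the 6 of the Wnt list with the smallest adjusted p, plus genes that split a class, chosen after values were seen. Replicates are coverslips of separate labels; whether they share litters is not stated. Values of 1 of the 15 classes are not reported here, though it stays in the fit and in counts over classes. No doublet caller was run; cells that met several gates were left out of classes. No sequence of a probe or protein was used here.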

Additional observations from a re-analysis of the deposited data

Results flagged for a closer look

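In 7 of 64 sets of 4 coverslips, 1 coverslip lay far from the other 3 in counts per cell volume, its gap to the nearest of them divided by the range of all 4 being past Dixon's critical value, where chance gives about 1 in 20. Coverslip 2 was low for Fzd9 in astrocyte-like cells (0.856 against 1.44 to 1.52, gap over range 0.881), in OPC-like cells (0.487 against at most 0.835 in the other 3, 0.984), in neurons with Gad1, Gad2 and Bcl11b (0.253 against 0.387 to 0.410, 0.856) and in Cux2 cells (0.713 against 1.17 to 1.26, 0.838). It was also low for Fzd8 in Pdgfrb cells (0.276 against 0.488 to 0.529, 0.838). Coverslip 1 was low for Fzd4 in Cux2 cells (0.222 against 0.275 to 0.282, 0.886). Coverslip 4, the deepest, was high for Fzd4 in all cells (0.381 against 0.302 to 0.309, 0.907).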

How the results depend on the processing

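No paired analysis was possible because the sexes share no label that pairs their coverslips, and coverslip was a block in every class fit. With 1 coverslip left out, log2 differences ran from 2.88 to 2.97 for Fzd4 in Ezr-high cells, 2.79 to 2.87 in Cldn5/Pecam1 cells, 1.58 to 1.72 against Pdgfrb cells and 0.03 to 0.16 between the first 2 classes. They ran from 1.14 to 1.23 and 1.11 to 1.30 for Fzd8 in Slc17a6 and Wnt5a/Wnt4 cells, 2.05 to 2.14 for Fzd9 in Slc17a6 cells, 2.74 to 2.91 and 2.12 to 2.44 for Fzd10 in Wnt5a/Wnt4 and Slc17a6 cells, and 2.59 to 2.75 for Fzd10 between rich and poor squares. Fzd8 in Slc17a6 cells gained its call without male replicate 2 (log2 1.23). Fzd9 in Slc17a6 cells lost it with library totals (log2 1.14). Fzd8 in Wnt5a/Wnt4 cells lost it with TMM factors (0.93), DESeq2 (1.22), lower marker minimums (1.10) and without either male coverslip. In the test against no change 52 genes were higher in Ezr-high cells (32 against a 2-fold difference), 20 in Cldn5/Pecam1 cells (12), 36 in Slc17a6 cells (22) and 18 in astrocyte-like cells of rich squares (4). Scaling turned the balance of calls. By volume Slc17a6 cells had 22 genes higher and 4 lower, against 10 and 19 by TMM and 8 and 20 by library total. Cldn5/Pecam1 cells had 12 and 24 by volume, 15 and 8 by TMM and 14 and 11 by library total. With TMM factors Ezr-high cells had 25 and 13 (32 and 7 by volume) and Wnt5a/Wnt4 cells 26 and 9 (31 and 6). The median of all genes in the Slc17a6 contrast was 0.70 by volume, -0.13 with TMM factors and -0.24 with library totals. The sexes differed in 0 genes by volume, 10 over all segmented cells, 5 with DESeq2, 5 with library totals, 7 with TMM factors and 62 without female replicate 1, where coverslip 4 is the lone female sample and is assumed to vary like the males. In no fit was a member among them. Classes above the median blank numbered 15 for each member; above the 95th percentile of blanks they were 13 for Fzd8 and 13 for Fzd10, against 6 and 8 above the highest. The share of Fzd10 counts in the richest 10% of squares was 42.1% to 46.1% with sides of 400 and 100. Over 29 further single values of members, beside those given above in this paragraph, and their 342 alternative fits, 13 lost a call, 10 gained one and 0 reversed a called direction. The causes were not tested.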
